A study of Rattus norvegicus with 4 samples.

Results

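The α- and β-tubulin genes are described here in ribosome footprints of cultured neonatal rat ventricular cardiomyocytes after knockdown of Cpeb4. The 10 genes were chosen by symbol: the β-tubulins Tubb6, Tubb5, Tubb2a, Tubb2b, Tubb3 and Tubb4b and the α-tubulins Tuba1a, Tuba1b, Tuba1c and Tuba4a. Each symbol matched exactly 1 of the 22250 genes in the files, and all 10 members passed the low-count filter that 11335 genes passed. Cells received either an siRNA against Cpeb4 (siCpeb4, 2 libraries) or a control siRNA (2 libraries). All cells came from Wistar rats 1 to 2 days old and were taken after 72 h with the siRNA. CPEB4 is an RNA-binding protein that recognises cytoplasmic polyadenylation elements in the untranslated end of mRNAs and regulates their poly(A) tails. The labelled culture method adds 250 nM Torin1, an inhibitor of the kinase mTOR, for 24 h. That method names no library for Torin1, so both groups may or may not carry it. The labels do not say whether the 2 libraries of a group were separate cultures, and p-values then measure only the spread between these libraries, which may be technical.

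Microtubules are built from dimers of 1 α- and 1 β-tubulin, each made from several genes called isotypes. Newly made tubulin passes through the chaperones prefoldin and CCT and through dedicated folding cofactors. Cells also hold their tubulin level by autoregulation, in which the TTC5 protein recognises nascent tubulin on the ribosome and triggers decay of the mRNA when free dimers are in excess. In heart muscle, microtubules carry cargo and resist shortening, and detyrosinated α-tubulin stiffens the myocyte. Tubb6 is a β-tubulin known from muscle regeneration and dystrophy in mice.

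Footprints counted in genes totalled 4889212 and 5910911 in the siCpeb4 libraries, against 5863879 and 3554011 in the controls. The siRNA target itself had 40 and 59 footprints in the siCpeb4 libraries, against 351 and 253 in the controls. Its log2 fold change of -2.86 ± 0.17 (SE) ranked 1 among all genes by p. Cardiomyocyte markers were high in every library: the 7 found of 8 listed summed to 54544 and 48593 CPM, counts scaled to one common total, in the siCpeb4 libraries and to 49578 and 53277 CPM in the controls. Of 7 neuronal markers, Snap25 and Th had no footprint in any library, while Uchl1 had 100 and 142 in the siCpeb4 libraries, against 146 and 87 in the controls.

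Together the 10 genes took 0.214% and 0.207% of the footprints in the siCpeb4 libraries, against 0.237% and 0.228% in the controls. Of the 10, 1 gene fell in the siCpeb4 libraries, Tubb6, and none rose (edgeR, adjusted p under 0.05 over all genes tested). Over all 11335 genes the same rule called 3.41%, with 1.87% lower and 1.54% higher. None of the 10 had a higher value at an unadjusted p under 0.05 in edgeR, and neither DESeq2 nor limma-voom called one higher. Tubb6 and Tuba4a had a lower value at that cut-off. Over all genes tested, 16.1% passed it in either direction, so none higher among 10 carries little weight. DESeq2 called 192 and limma-voom 375 of all genes, in either direction. The log2 fold change was negative in 9 of the 10, with a median of -0.27, beside -0.0031 over all genes tested. Both siCpeb4 libraries lay below both controls in 7 of the 10, a pattern found in 19.5% of all genes tested, and above both controls in none, found in 26.5% of all genes. These counts use CPM on library totals and ask for no minimum margin. The nearest pair was 157 and 191 CPM for Tubb6. For Tubb2a it was only 10.64 CPM in siCpeb4 replicate 1 and 10.69 CPM in control replicate 2. On library totals rescaled by TMM (a trimmed mean of gene ratios between libraries) Tuba4a joined, which made 8 of 10, where 22.3% of all genes lay lower. Its nearest pair was then 323.3 CPM in siCpeb4 replicate 1 and 324.8 CPM in control replicate 1. The members are paralogs of 1 family, and the 2 libraries of a group serve for all of them, so the counts are not independent evidence.

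**Figure D1:**
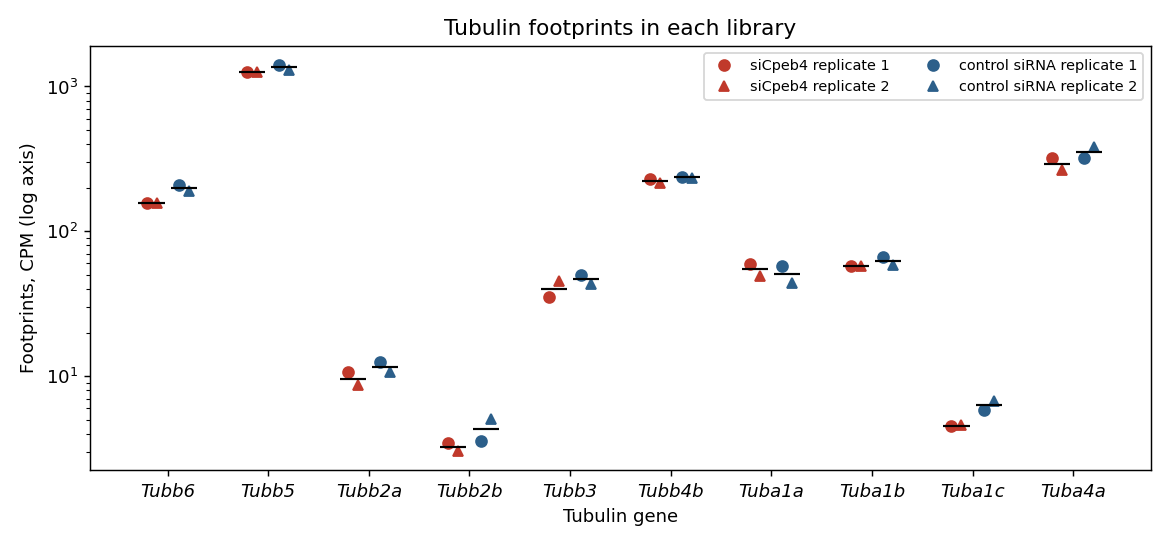
Footprint level of each tubulin gene in CPM on library totals (log axis), with siCpeb4 libraries left of the control libraries for each gene; circles are replicate 1, triangles replicate 2 and black bars group means. Tubb6 had 157 CPM in both siCpeb4 libraries, below its 210 and 191 CPM in the controls, while Tuba1a, Tubb3 and Tuba4a overlapped between groups.

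Tubb6 (ENSRNOG00000018371) had 766 and 926 footprints in the siCpeb4 libraries, against 1229 and 680 in the controls. Scaled to library totals, these were 157 and 157 CPM in the siCpeb4 libraries, against 210 and 191 CPM in the controls. Both siCpeb4 libraries were thus below both controls. The group means were 156.7 ± 0.0085 CPM after Cpeb4 siRNA and 200.5 ± 12.9 CPM in the controls (SD, n = 2 each). The small SD after Cpeb4 siRNA depends on the scaling, since on TMM-scaled totals these libraries had 157 and 154 CPM, against 211 and 195 CPM in the controls. Tubb6 fell to 0.765 of the control level, a log2 fold change of -0.39 ± 0.11 (SE) with a 95% interval of -0.61 to -0.17 (edgeR adjusted p = 0.0452). The call sat at the threshold. It ended in DESeq2 (adjusted p = 0.0848), with library totals alone (edgeR adjusted p = 0.0798) and when any 1 of the 4 libraries was left out (0.426 without control replicate 1, 0.122 without control replicate 2, 0.0823 without siCpeb4 replicate 1 and 0.131 without siCpeb4 replicate 2). The fits with a library left out hold 1 library in one group and take the spread between libraries from the other group alone, on the assumption that both spread alike. The log2 fold change was negative in all 13 alternatives, between -0.44 and -0.33.

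**Figure D2:**
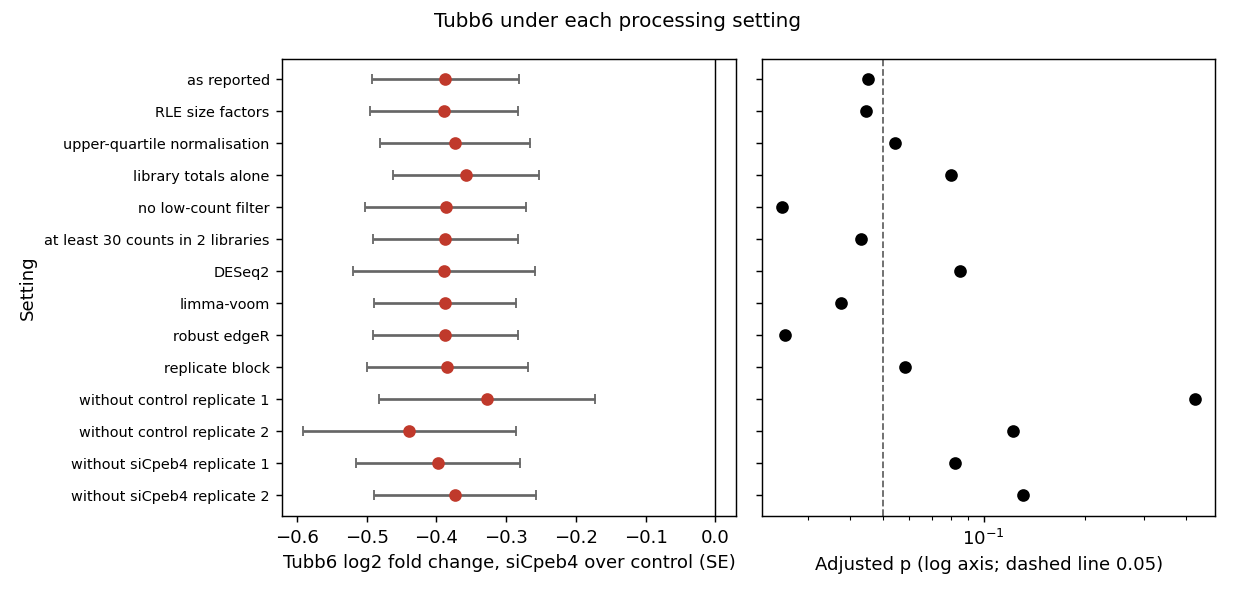
Tubb6 log2 fold change of siCpeb4 over control with its SE (left) and adjusted p (right, log axis, dashed line at 0.05) for the reported fit and each alternative. The fold change kept its sign in all 13 alternatives and the adjusted p stayed under 0.05 in 5 of them.

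Tubb5, the widely expressed β-tubulin of dividing and other cells, had 1264 and 1263 CPM in the siCpeb4 libraries, against 1402 and 1306 CPM in the controls. Its groups did not overlap, yet its difference of -0.13 ± 0.10 (SE, log2) did not pass (edgeR adjusted p = 0.56), and the 95% interval ran from -0.33 to 0.07. Tubb4b, a β-tubulin found in most tissues and in cilia, had 229 and 216 CPM in the siCpeb4 libraries, against 238 and 235 CPM in the controls. Its log2 fold change was -0.12 ± 0.10 (edgeR adjusted p = 0.65), with an interval of -0.33 to 0.10. For both genes the interval overlaps that of Tubb6, and the difference between their changes and that of Tubb6 was not tested.

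Tubb3, known as the β-tubulin of neurons, had 35.2 and 45.2 CPM in the siCpeb4 libraries, against 50.3 and 43.1 CPM in the controls. The groups overlapped, and the log2 fold change of -0.25 ± 0.15 did not pass (edgeR adjusted p = 0.43). Beside it, the 7 neuronal markers summed to 25.2 and 30.6 CPM in the siCpeb4 libraries, against 30.2 and 29.3 CPM in the controls, and only Uchl1 and Dbh passed the low-count filter. Tubb2a and Tubb2b, a pair of close paralogs best known from brain, had few footprints. Tubb2a had 52 and 51 in the siCpeb4 libraries, against 74 and 38 in the controls, which gave -0.33 ± 0.25 on the log2 scale (edgeR adjusted p = 0.57). Tubb2b had 17 and 18 in the siCpeb4 libraries, against 21 and 18 in the controls, which gave -0.40 ± 0.39 on the log2 scale (edgeR adjusted p = 0.69). Both were lower in CPM in each siCpeb4 library than in each control, and their intervals of -0.85 to 0.19 and -1.21 to 0.42 show how little these counts can resolve.

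Among the α-tubulins, Tuba4a had the smallest p. This isotype ends without the terminal tyrosine that most other α-tubulins carry when made. It had 323 and 264 CPM in the siCpeb4 libraries, against 323 and 381 CPM in the controls. The replicate 1 values of both groups nearly coincided, siCpeb4 replicate 2 was the lowest library and control replicate 2 the highest. The log2 fold change of -0.29 ± 0.12 had an unadjusted p of 0.0224 but missed the threshold (edgeR adjusted p = 0.21).

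Tuba1b, the main α-tubulin of most cells, had 57.3 and 57.2 CPM in the siCpeb4 libraries, against 66.0 and 58.2 CPM in the controls. Its log2 fold change was -0.15 ± 0.13 (edgeR adjusted p = 0.60), with no overlap of the groups. Tuba1a, the α-tubulin of developing neurons and many other cells, had 59.7 and 49.4 CPM in the siCpeb4 libraries, against 57.8 and 44.2 CPM in the controls. It was the one member with a positive log2 fold change, 0.05 ± 0.15 (edgeR adjusted p = 0.92). That sign is not stable, since it was -0.11 without control replicate 2 and -0.11 without siCpeb4 replicate 1. Tuba1c, an α-tubulin of many tissues, had 22 and 27 footprints in the siCpeb4 libraries, against 34 and 24 in the controls. Its log2 fold change of -0.48 ± 0.33 was the most negative of the 10 and did not pass (edgeR adjusted p = 0.52).

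**Figure D3:**
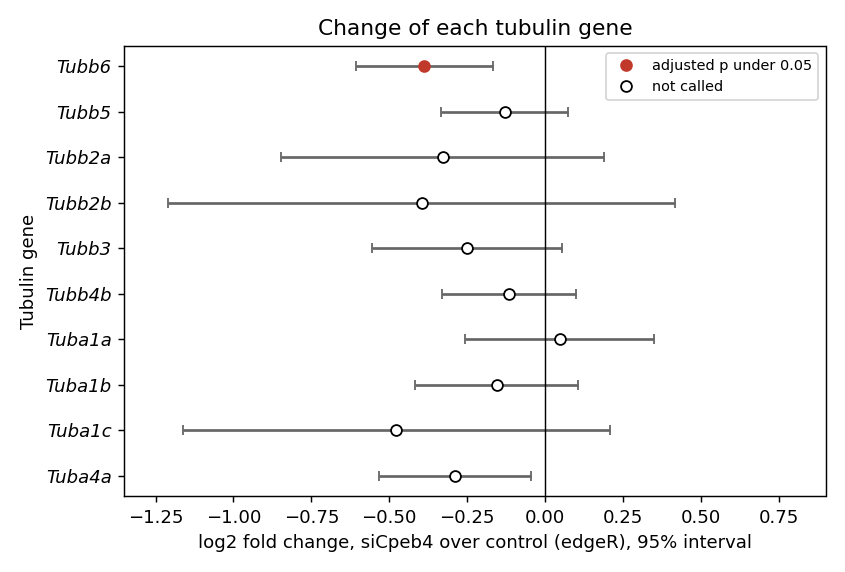
Log2 fold change of siCpeb4 over control for each tubulin gene with its 95% interval from edgeR; the filled point is the gene with an adjusted p under 0.05 and open points are not called. Tubb6 was called at -0.39, and every interval except those of Tubb6 and Tuba4a included 0.

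The mix of isotypes was followed as the share each gene took of the footprints of its family. Of all β-tubulin footprints, Tubb6 held 9.22% (exact 95% interval 8.61 to 9.86) and 9.24% (8.68 to 9.83) in the siCpeb4 libraries, against 10.9% (10.4 to 11.5) and 10.7% (9.94 to 11.5) in the controls. These intervals cover counting error only. Tubb5 held 74.4% and 74.5% in the siCpeb4 libraries, against 73.2% and 72.9% in the controls. The shares of Tubb6 were lower and those of Tubb5 higher in each siCpeb4 library than in each control. Shares within a family are tied to each other, so a lower share of one gene raises the others.

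The number of Tubb6 footprints per Tubb5 footprint was 0.124 and 0.124 in the siCpeb4 libraries, against 0.149 and 0.147 in the controls. This ratio needs no scaling between libraries. The ratios of Tubb6 to Tubb4b, Tuba1a and Tuba1b were also lower in both siCpeb4 libraries than in both controls. The ratios to Tubb2a, Tubb2b, Tubb3, Tuba1c and Tuba4a overlapped between groups. With 2 libraries a group, the smallest two-sided p an exact permutation test of such a ratio allows is 0.333, so none was tested.

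The families were also summed, over 8 genes each. The β-tubulin genes summed to 1699 and 1695 CPM in the siCpeb4 libraries, against 1916 and 1791 CPM in the controls. The α-tubulin genes summed to 459.99 and 388.8 CPM in the siCpeb4 libraries, against 465 and 499 CPM in the controls. Both sums were lower in each siCpeb4 library than in each control. Of the α-tubulin footprints, Tuba4a held 70.3% and 68.0% in the siCpeb4 libraries, against 69.5% and 76.3% in the controls, and these ranges overlap. Neither lengths of coding sequences nor losses to unique mapping were accounted for, so levels and shares of different genes are not compared with each other.

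Unique mapping limits these values, and not equally for all genes. Each file is named as holding uniquely mapped reads, and the HTSeq summary lines list 0 reads with non-unique alignment in each library. Whether and at which step reads that matched more than 1 place were removed was not tested. Tubulin genes are close paralogs, and processed pseudogenes add further copies. RefSeq's rat annotation (GRCr8, matched by symbol for 10 of 10 members) names 14 pseudogenes of Tuba1b, 5 of Tuba1a, 4 of Tubb4b and 1 of Tuba4a. It names none after Tubb6, Tubb5, Tubb2a, Tubb2b, Tubb3 or Tuba1c. Only pseudogenes named as a member's symbol followed by -ps were counted, so any under other names are left out. The submitters' notes name another assembly, Rnor_6.0. How many reads each gene may have lost was not measured. A stable loss leaves a ratio between libraries in place, but siCpeb4 replicate 2 kept footprints of 29 to 33 nt where the others kept 29 to 34 nt. Without that library the log2 fold change of Tubb6 was -0.37. The counts of Tuba1a, Tuba1b, Tuba1c, Tubb2a and Tubb2b, which are known for near-identical paralogs, are uncertain because of unique mapping. Those of Tubb4b and Tuba4a, with named pseudogenes, may be as well. Coding sequences were not compared here.

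In footprints of a bulk culture, fewer cells of a type, less RNA per cell and fewer ribosomes per mRNA cannot be told apart. No matched RNA counts were used here. As a sum, the 8 listed fibroblast markers moved the same way as Tubb6. They summed to 9712 and 9170 CPM in the siCpeb4 libraries, against 13079 and 12048 CPM in the controls. Most of this was Col1a1, with 6072 and 5374 CPM in the siCpeb4 libraries, against 8586 and 7867 CPM in the controls. Col3a1 and Pdgfra were also lower in each siCpeb4 library than in each control, while Dcn, Lum, Postn and Tcf21 overlapped between groups. Of 7 tested, 6 had a negative log2 fold change and 1 fell, the collagen Col1a1 (-0.55 ± 0.11, edgeR adjusted p = 0.00339), while Col1a2 is listed at 0 in every library. Over all genes tested, 50.5% were negative and 1.87% were called lower. The Col1a1 call ended without control replicate 1 (edgeR adjusted p = 0.0552) and without siCpeb4 replicate 2 (0.0942). The part of these cells in the Tubb6 result was not tested. The epicardial markers summed to 260 and 221 CPM in the siCpeb4 libraries, against 286 and 304 CPM in the controls. Most of this was Msln, with 186 and 150 CPM in the siCpeb4 libraries, against 216 and 218 CPM in the controls. Wt1 was also lower in each siCpeb4 library than in each control, while Upk3b, Upk1b and Krt19 overlapped between groups. None of the 4 tested was called by edgeR, with 1 at an unadjusted p under 0.05, 1 called by limma-voom and 0 by DESeq2. As a sum, smooth muscle and pericyte markers went the other way, with 4988 and 5437 CPM in the siCpeb4 libraries, against 4636 and 4705 CPM in the controls. Most of this was Acta2, with 4373 and 4797 CPM in the siCpeb4 libraries, against 3990 and 4051 CPM in the controls. Rgs5 was also higher in each siCpeb4 library than in each control. Cspg4 was lower in each, while Pdgfrb, Cnn1 and Myh11 overlapped between groups. The sums of endothelial and of leukocyte markers overlapped between groups. No gene of these 3 lists was called by edgeR. Proliferation markers, which rise with dividing cells, summed to 359 and 458 CPM in the siCpeb4 libraries, against 391 and 376 CPM in the controls. Those groups overlap, and none of the 9 was called by edgeR, DESeq2 or limma-voom or had an unadjusted edgeR p under 0.05.

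Genes that act on tubulin were read from the same fit, in the order of a tubulin's life. Of 6 prefoldin subunits tested, which hand tubulin to CCT, none was called. Pfdn5 had the smallest p (-0.37 ± 0.12, edgeR adjusted p = 0.12). Of the 8 subunits of the chaperonin CCT, which folds tubulin and actin, 1 fell, Cct7 (-0.38 ± 0.10, edgeR adjusted p = 0.0373). That call ended without control replicate 1 (edgeR adjusted p = 0.243), control replicate 2 (0.206), siCpeb4 replicate 1 (0.0716) or siCpeb4 replicate 2 (0.106), and with library totals alone (0.0636) or the replicate number as a block (0.0551). The median was -0.18, and 7 of the 8 were negative, where 50.5% of all genes tested were negative and 1.87% were called lower. CCT footprints summed to 2809 and 2965 CPM in the siCpeb4 libraries, against 3196 and 3125 CPM in the controls. Of 6 folding cofactors tested, which assemble the dimer, none was called and none was negative. Their median was 0.10, and Tbce had the smallest p (0.15 ± 0.14, edgeR adjusted p = 0.64).

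Of 4 genes of tubulin mRNA autoregulation, none was called. Ttc5, the factor that recognises nascent tubulin, stood at -0.20 ± 0.16 on the log2 scale (edgeR adjusted p = 0.60). Cnot11, a subunit of the deadenylase that it recruits, had the smallest p (-0.23 ± 0.14, edgeR adjusted p = 0.44). Scaper, the adaptor between them, had 0.16 ± 0.16 (edgeR adjusted p = 0.70).

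Of 11 enzymes of tyrosination and glutamylation tested, none was called. The tubulin polyglutamylase Ttll7 had the smallest p, with 18 and 24 footprints in the siCpeb4 libraries, against 44 and 22 in the controls (-0.86 ± 0.33, edgeR adjusted p = 0.18). Ttl, which restores the terminal tyrosine, had 0.11 ± 0.18. The detyrosinases Vash1 and Vash2 had -0.24 ± 0.34 and 0.27 ± 0.32, and their partner Svbp had 0.19 ± 0.26. Each of these 4 values was smaller than its SE. Of 3 acetylation genes, 2 were tested and not called, and Atat1, the acetyltransferase of α-tubulin, had 0.16 ± 0.19 (edgeR adjusted p = 0.75).

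Of 10 genes of the γ-tubulin ring complex tested, which nucleates microtubules, none was called, and the median was 0.20. Mzt1, a small subunit of the complex, had the smallest p (0.67 ± 0.24, edgeR adjusted p = 0.15). Tubg1, γ-tubulin itself, had 272 and 317 footprints in the siCpeb4 libraries, against 253 and 177 in the controls (0.21 ± 0.13, edgeR adjusted p = 0.47). Among 10 further tubulin genes, Tubg1 included, 4 were tested and none was called, all with a positive log2 fold change and a median of 0.27. The α-tubulin Tuba8 was one of them, with 75 and 77 footprints in the siCpeb4 libraries, against 73 and 33 in the controls (0.32 ± 0.24, edgeR adjusted p = 0.56).

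Of 21 microtubule-associated and end-binding proteins tested, none was called, and the median was -0.03. Macf1, which links microtubules to actin, had the smallest p (-0.32 ± 0.10, edgeR adjusted p = 0.0792). Of 8 destabilising and severing proteins none was called, and Stmn1, stathmin, which binds free dimers, had the smallest p (0.33 ± 0.14, edgeR adjusted p = 0.26). Of 20 transport kinesin and dynein genes none was called. Their median was 0.0043, and the kinesin Kif1b had the smallest p (-0.22 ± 0.10, edgeR adjusted p = 0.26). Across the lists with no call, members with an unadjusted edgeR p under 0.05 numbered 1 for prefoldin, 0 for cofactors, 0 for autoregulation and 0 for acetylation. They numbered 2 for tyrosination and glutamylation, 1 for the ring complex and 0 for the other tubulin genes. They numbered 4 for associated proteins, 2 for destabilising proteins and 4 for motors. Over all genes tested, 16.1% had an unadjusted p under 0.05. DESeq2 and limma-voom called none in these lists.

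**Figure D4:**
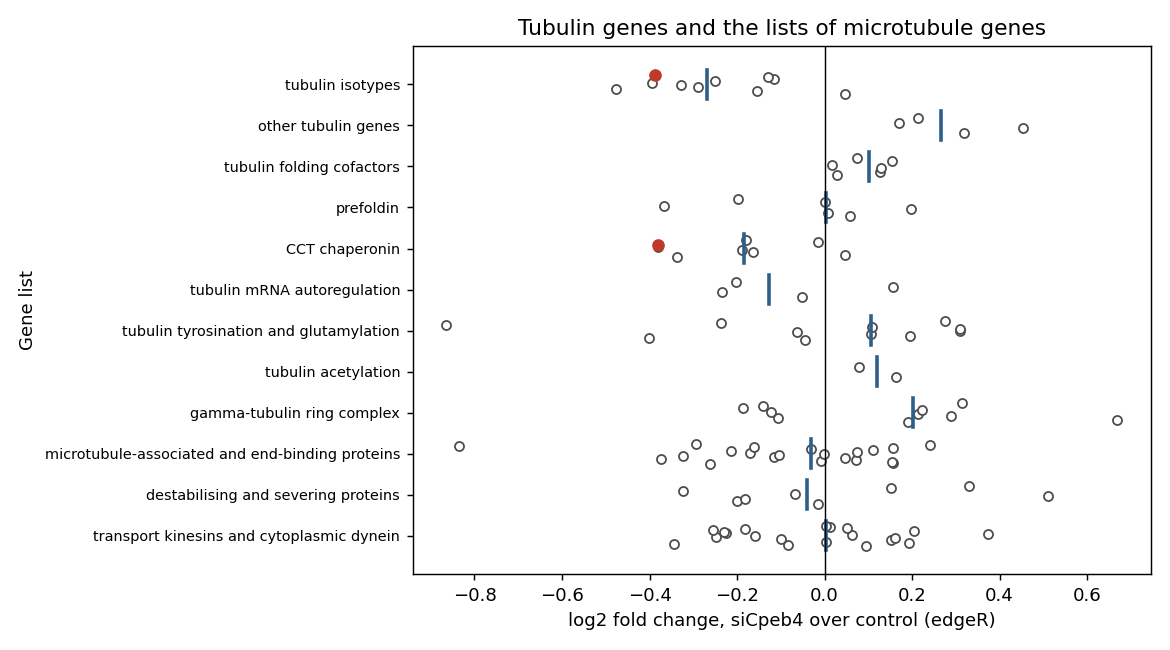
Log2 fold change of siCpeb4 over control for each tested gene of the tubulin isotypes and of 11 lists of microtubule genes; points are genes, filled where the adjusted p is under 0.05, and blue bars are list medians. Tubb6 and Cct7 are the filled points; the isotypes have a median of -0.27 and the ring complex one of 0.20.

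The 5 genes whose profile over the 4 libraries lay nearest to that of Tubb6 were sought among 3687 tested genes with a mean of at least 50 CPM. Likeness was the Euclidean distance of log2 CPM values centred on each gene's mean. Nol7, a nucleolar protein, lay at a distance of 0.030, the small GTPase Rap1a at 0.032, the actin cross-linker filamin A, Flna, at 0.054, and Epm2aip1 and the 14-3-3 protein Ywhah at 0.058 each. Flna had 1292 and 1330 CPM in the siCpeb4 libraries, against 1711 and 1634 CPM in the controls. With 4 libraries, likeness in profile mostly restates a similar difference between the groups.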

How the data were processed

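Ribosome footprints of 4 libraries (2 siCpeb4, 2 control) were analysed. Per the labels' protocols, the polysomes were separated on sucrose and treated with RNase I, although the molecule is given as polyA RNA. Each deposited file gives whole-number counts by Ensembl gene, unnormalised. The submitters' processing notes name Bowtie2, STAR 2.7, HTSeq 0.12 and Rnor_6.0. The tools' roles and the strand option were not given in the sources used here. In each file, 5 HTSeq summary lines, which name no gene, stayed out of totals and tests. Featureless reads were 4.42% to 4.63% and ambiguous reads 0.0798% to 0.0916%.

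The whole table was fitted in R 4.3.3 with edgeR 4.0.16 (quasi-likelihood F-test, TMM, filterByExpr with a minimum count of 10, group as the only term, two-sided, Benjamini-Hochberg over 11335 genes, called at adjusted p under 0.05). SEs come from the F statistic. Alternatives used DESeq2 1.42.0, limma-voom (limma 3.58.1) and the settings given in the closing section. The workflow was tested on counts simulated with the fitted dispersions. It recovered 36% of 1.5-fold and 88% of 2-fold changes there, so changes of 1.5-fold were mostly missed. Replicates differed by more than sampling noise (chi-square per degree of freedom 5.12 for siCpeb4, 2.91 for controls). Members and gene lists were chosen with earlier results of these data known. Named genes are all members, every called gene of a list or else its smallest p, and the 5 profiles nearest to Tubb6; Ttc5, Scaper, Ttl, Vash1, Vash2, Svbp and Tuba8 were added after their values were seen. The planned comparison of coding sequences between members was not analysed here. Some single-gene results are left out of the text.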

Additional observations from a re-analysis of the deposited data

How the results depend on the processing

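The number of all genes called, 386, was 192 in DESeq2, 606 with no low-count filter, 629 at an adjusted p under 0.10, and 212 to 318 with 1 library left out, the lowest without control replicate 1. The count of tubulin genes called lower, 1 (Tubb6), became 0 with upper-quartile normalisation (Tubb6 edgeR adjusted p = 0.0546), with library totals alone, in DESeq2 and with each library left out (0 to 0). Those calls were lost at log2 fold changes of -0.44 to -0.33. With the replicate number as a block the count was 0 as well (Tubb6 edgeR adjusted p = 0.0583) and 403 genes were called in all. Deviations of same-numbered libraries from their group means had r = -0.11 over genes. With 2 libraries a group, the crossed numbering must give the same r with the opposite sign. So small an r cannot decide whether the labels' numbers pair the libraries. Chosen after seeing the data, the crossed replicate block called 481 genes, 1 of them a tubulin gene, lower. No tubulin gene was called higher under any alternative run. The Tuba1a log2 fold change of 0.05 was -0.11 to 0.26 with 1 library left out, negative without control replicate 2 or siCpeb4 replicate 1; the cause was not tested. For the 10 genes, 118 of the single-gene values kept direction and side of the threshold, 8 lost the Tubb6 call and 2 changed sign. DESeq2 gave no adjusted p for Tubb2a, Tubb2b and Tuba1c, and these were counted among the 118 as not called. Tubb2b and Tuba1c did not reach at least 30 counts in 2 libraries and have no value there. Depth limits these 2 and Tubb2a, each with under 80 footprints in every library.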
